A study of Mus musculus with 5 samples.

Results

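The genes described here are 39 mouse genes of fatty acid oxidation and ketone body formation that are known targets of, or act with, the nuclear receptor PPARA. They were chosen by name: every non-control probe whose gene name in the scanner files equals a member was taken, with Eci1 listed as Dci and Eci2 as Peci. All 39 had a probe, 57 probes in all, among 28632 gene names on the array, and 11 members had several probes. Each gene was read from 1 probe, its brightest by the mean of the 5 arrays. All 39 members were well above background on all 5 arrays.

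Liver RNA came from male C57BL/6J mice aged 25 weeks, and the RNA of 5 mice was pooled in each of 5 groups before hybridisation to 1 one-colour array per group. The control group was untreated. HFHFr stands for a diet high in fat and fructose, which the HFHFr-F group ate for 20 weeks, and this group was labelled as severely insulin resistant. The HFHFr-N group had 16 weeks of that diet and then 4 weeks of normal diet, and was labelled as insulin resistant. The HFHFr-FA group stayed on the diet but had all-trans retinoic acid, the active form of vitamin A, mixed into it for the last 4 weeks after 16 weeks without. It was labelled as not insulin resistant with slight steatosis. The HFHFr-NA group likewise went from 16 weeks of HFHFr to 4 weeks of normal chow that contained all-trans retinoic acid, and was labelled as recovered. With 1 pool and 1 array per group there is no replicate of any group, so no test could be made and each difference is one between 2 pools.

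PPARA is a ligand-activated transcription factor that pairs with the retinoid X receptor on DNA and, in the fasting liver, raises the genes that burn fatty acids. Fatty acids are activated to acyl-CoA, carried into mitochondria by the carnitine shuttle and shortened step by step to acetyl-CoA, from which the liver makes ketone bodies. Peroxisomes shorten the longest chains, and microsomal CYP4A enzymes oxidise the far end of the chain. In mouse liver the Cyp4a genes and Ehhadh are among the targets most sensitive to PPARA ligands.

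The receptor pair binds a direct repeat of a short site with 1 base between the copies. The letters AGGNCANAGGNCA, with N for any base, were looked for on both strands of RefSeq promoter windows of 300 bases, 250 before and 50 after a gene start, on build GRCm38.p6. They occurred in 125 of 32851 windows, or 0.381%. Of the members, 31 had a window, and of their 34 windows 1 held the letters, that of Fabp1, which encodes the liver fatty acid binding protein. The 250 bases before the start of Fabp1, at chr6:71199629-71199878 on the plus strand, are printed because this was the one match, with the matched letters in capitals.
Fabp1 upstream: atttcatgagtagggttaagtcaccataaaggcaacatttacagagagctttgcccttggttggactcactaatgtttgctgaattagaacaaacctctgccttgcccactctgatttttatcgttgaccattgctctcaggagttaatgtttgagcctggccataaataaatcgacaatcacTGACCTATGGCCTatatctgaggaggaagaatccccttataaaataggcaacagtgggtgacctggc
The match lies from base -67 to base -55 counted from the gene start and reads AGGCCATAGGTCA on the minus strand. A match is a description of the letters and not a shown binding site, and a window without it says nothing about the receptor.

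Several members were read by more than 1 probe. The results for Cyp4a10, Crot and Acaa1a compare other probes with the chosen one, and 4 of these other probes are printed from the deposited files. All are 60 bases long, written 5′ to 3′ with no letters in capitals, and their positions are on build mm9.
Cyp4a10 probe 3: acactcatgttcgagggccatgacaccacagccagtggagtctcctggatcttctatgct
Cyp4a10 probe 4: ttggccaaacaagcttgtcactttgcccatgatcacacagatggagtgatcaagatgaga
Crot probe 2: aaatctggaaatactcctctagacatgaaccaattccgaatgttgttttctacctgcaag
Acaa1a probe 3: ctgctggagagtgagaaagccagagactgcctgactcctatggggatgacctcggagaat
The Cyp4a10 probes lie on the plus strand at chr4:115198154-115198213 and at chr4:115197445-115197926. The Crot probe lies on the minus strand at chr5:8987814-8987873. The Acaa1a probe lies on the plus strand at chr9:119255643-119256863. Cyp4a10 probe 4 and the Acaa1a probe span more genome than their own length, so each lies across a gap in the genome. The files list Cyp4a32 as well as Cyp4a10 for Cyp4a10 probes 2 and 4, and Acaa1b as well as Acaa1a for 1 Acaa1a probe that is not printed. The signal of those probes cannot be assigned to 1 gene of the pair.

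Signal is given below as scaled signal, the processed intensity divided by the 75th percentile of its array, and differences are log2 ratios of scaled signal. Between 46.7% (control) and 49.4% (HFHFr-FA) of non-control spots were well above background, and no spot was saturated. Replicate spots of a probe within 1 array gave a log2 ratio a standard deviation of 0.103 to 0.116, which covers spotting alone and neither mice nor arrays. HFHFr-FA was alone on slide 2, while the other 4 groups shared slide 1, so slide and treatment cannot be told apart in any comparison with HFHFr-FA. All 7 hepatocyte markers with a probe (Alb, Ttr, Apoa1, Apoc3, Tat, Cyp2e1 and Hnf4a) were well above background on every array, with a summed scaled signal from 2309 in HFHFr-FA to 3043 in HFHFr-NA. None of the muscle or kidney markers was well above background on any array. Of the adipocyte markers Adipoq, Plin1 and Lep were not either, while Cidea was on all 5, at 13.3 in control, 62.4 in HFHFr-F, 29.5 in HFHFr-FA, 56.5 in HFHFr-N and 25.1 in HFHFr-NA. Of the pancreas markers Cela1 alone was, in HFHFr-F only, at 0.365. The summed scaled signal of 8 Kupffer cell and macrophage markers was 66.1 in control, 128 in HFHFr-F, 118 in HFHFr-FA, 79.7 in HFHFr-N and 63.9 in HFHFr-NA. Cd5l and Marco made up most of it in HFHFr-F, at 64.7 and 37.7. In HFHFr-F against control 3 of the 8 were at least 2-fold higher, beside 5.40% of all genes. Clec4f and Vsig4 were at 0.13 and 0.05 in that pair, and Timd4 was lower, at -0.87. In pooled tissue, fewer cells of a type and less RNA per cell cannot be told apart.

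Under the diet kept to the end, the Cyp4a genes and Ehhadh were the members furthest below the control, while most enzymes of the mitochondrial spiral were lower by less than 1.5-fold. Comparing HFHFr-F with control, 5 of the 39 members were at least 2-fold lower (Cyp4a31, Ehhadh, Cyp4a10, Cyp4a14 and Crot), where 3.21% of 14631 genes were. In the same pair 2 members were at least 2-fold higher (Ucp2 and Pdk4), where 5.40% of genes were. Pdk4 was at 1.03, and at 0.95 with normexp background correction and quantile normalization. At 1.5-fold, 7 members were lower, with Creb3l3 and Etfdh added, against 11.7% of genes, and 2 were higher, against 11.6%. The median log2 ratio was -0.21 over the members and -0.08 over all genes, and 29 members lay below 0 and 10 above, where 8398 of the 14631 genes lay below 0. HFHFr-F was the lowest of the 5 arrays for 19 members and control the highest for 15, beside 31.3% and 19.7% of the 13134 genes measured on all arrays. The median of the 7 hepatocyte markers in this pair was -0.29, and its part in the members' values was not tested.

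**Figure D1:**
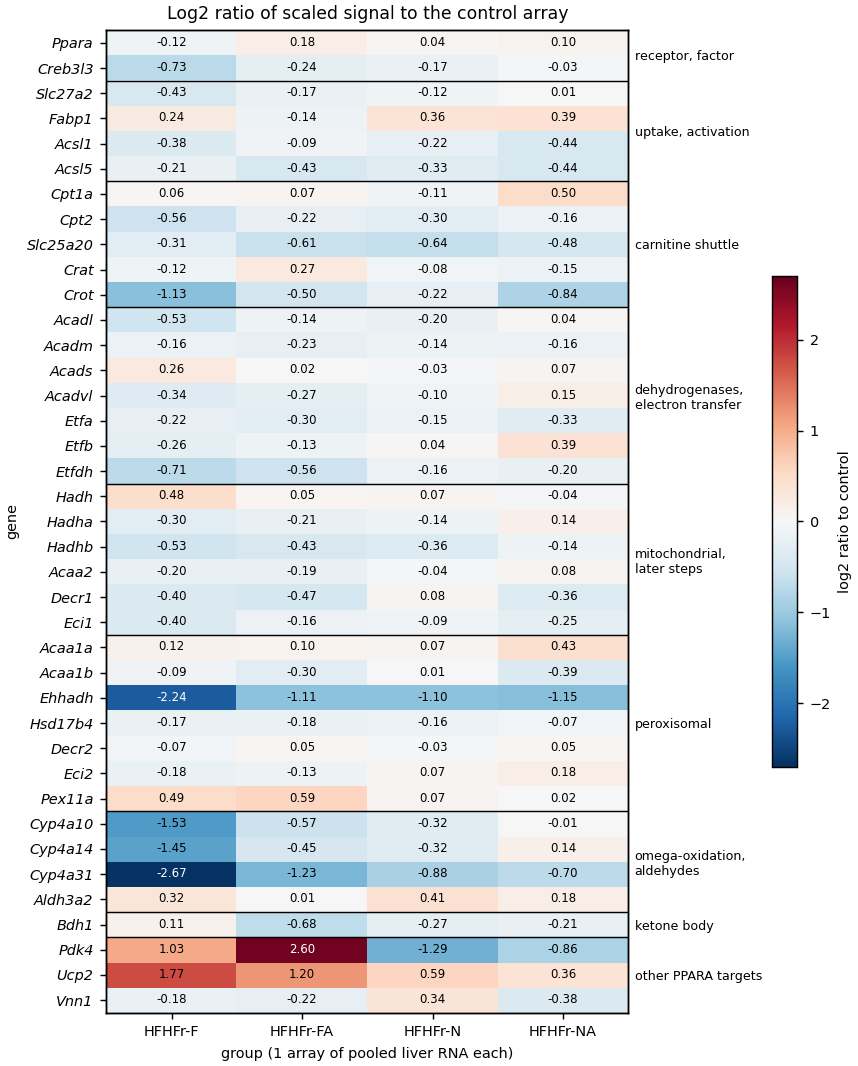
Heat map of the log2 ratio of scaled signal to the control array for the 39 genes (vertical axis, grouped by role) on the 4 other arrays (horizontal axis), 1 array of pooled RNA each, blue for lower and red for higher. The deepest blue cells are Cyp4a31 at -2.67 and Ehhadh at -2.24 in HFHFr-F, and the deepest red cell is Pdk4 at 2.60 in HFHFr-FA.

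The receptor gene itself differed little between the pools. Ppara, read by a probe spotted 10 times at chr15:85631955-85632014, had a scaled signal of 33.4 in control, 30.8 in HFHFr-F, 37.9 in HFHFr-FA, 34.3 in HFHFr-N and 35.7 in HFHFr-NA. HFHFr-FA was the highest and HFHFr-F the lowest, 1.23-fold apart. Its log2 ratio was -0.12 for HFHFr-F against control, 0.04 for HFHFr-N against control, 0.30 for HFHFr-FA against HFHFr-F and 0.06 for HFHFr-NA against HFHFr-N. The 10 spots of HFHFr-F lay between 29.3 and 32.3 and those of HFHFr-FA between 34.4 and 39.1, without overlap. Each range covers spotting on 1 array of 1 pool and not mice, and HFHFr-FA was alone on its slide. How often other probes spotted 10 times separated in this way was not counted. Creb3l3 encodes CREBH, a liver transcription factor that acts with PPARA in fasting, and its scaled signal was 155 in control, 93.1 in HFHFr-F, 131 in HFHFr-FA, 138 in HFHFr-N and 152 in HFHFr-NA. HFHFr-F was the low array, 1.66-fold below control, and HFHFr-NA lay next to control.

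**Figure D2:**
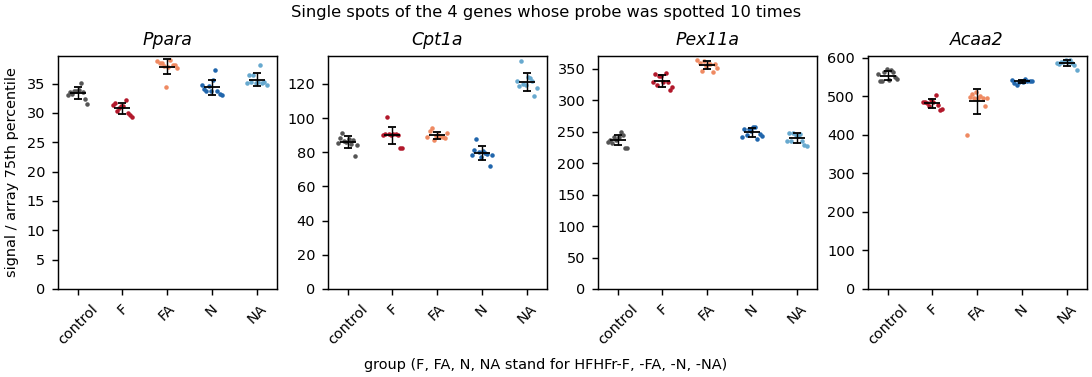
Scaled signal (vertical axes, from 0) of the 10 spots of the probes for Ppara, Cpt1a, Pex11a and Acaa2 on each of the 5 arrays (horizontal axes), with the mean and standard deviation of the spots as black bars. For Cpt1a the HFHFr-NA spots lie between 113 and 133 and all other spots at or below 101, and the spread is between spots of 1 array, not between mice.

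By their chosen probes, the 4 genes of uptake and activation of fatty acids were under 1.5-fold in all 6 pairs compared. Fabp1, whose promoter is printed above, had a scaled signal of 728 in control, 860 in HFHFr-F, 661 in HFHFr-FA, 937 in HFHFr-N and 953 in HFHFr-NA. It was thus high on both arrays from mice returned to normal diet and lowest in HFHFr-FA, with a log2 ratio of -0.38 for HFHFr-FA against HFHFr-F and 0.53 for HFHFr-NA against HFHFr-FA. Of the other 3 genes, Slc27a2 encodes a very long chain fatty acid transporter and acyl-CoA synthetase, and Acsl1 and Acsl5 encode long chain acyl-CoA synthetases. Their log2 ratios for HFHFr-F against control were -0.43, -0.38 and -0.21. Other probes were further from 0: the second Slc27a2 probe gave -0.91 for that pair. The other 2 Acsl1 probes gave -0.56 and -0.48 for it, and -0.72 and -0.64 for HFHFr-NA against HFHFr-FA, where the chosen probe gave -0.34. The Slc27a2 value and those of Acsl1 in the last pair were past 1.5-fold.

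In the carnitine shuttle, Cpt1a was set apart from the rest by its signal in HFHFr-NA. Cpt1a encodes the outer membrane carnitine palmitoyltransferase, the regulated entry step of mitochondrial oxidation, and its scaled signal at chr19:3385374-3385433 was 85.9 in control, 89.7 in HFHFr-F, 89.9 in HFHFr-FA, 79.5 in HFHFr-N and 121 in HFHFr-NA. Over its 10 spots it was 121 ± 5.31 (SD of spots) in HFHFr-NA and 79.5 ± 3.96 in HFHFr-N, a log2 ratio of 0.61. Only HFHFr-NA stood away from the other arrays, and on the HFHFr diet the ratio with retinoic acid was 0.00. The other Cpt1a probe, at chr19:3384629-3384688 with 1 spot, did not repeat this pattern: it read 3.82 in control, 2.55 in HFHFr-F, 3.31 in HFHFr-FA, 3.45 in HFHFr-N and 3.73 in HFHFr-NA. Its log2 ratio was 0.11 for HFHFr-NA against HFHFr-N and -0.58 for HFHFr-F against control, where the chosen probe gave 0.06. Probes of 4 members, Cpt1a, Etfdh, Acaa1a and Bdh1, differed in a log2 ratio by at least 0.5 with opposite sign or by over 1.0, so the ratios of these genes are uncertain.

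Crot encodes the carnitine octanoyltransferase that hands shortened chains from peroxisomes to mitochondria. At chr5:8966430-8966489 its scaled signal was 207 in control, 94.6 in HFHFr-F, 147 in HFHFr-FA, 178 in HFHFr-N and 115 in HFHFr-NA. HFHFr-F and HFHFr-NA were the low arrays, 2.19-fold and, on the log2 scale, -0.84 from control. The second probe, whose sequence is printed above, read 4.28, 1.41, 2.19, 2.64 and 1.20 in the same order of groups. It placed the same arrays low, with a log2 ratio of -1.60 for HFHFr-F against control. Retinoic acid went with a log2 ratio of 0.63 on the HFHFr diet and -0.63 on normal diet by the chosen probe, and with 0.64 and -1.13 by the second.

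Cpt2, the inner membrane partner of Cpt1a, had a scaled signal of 151 in control, 103 in HFHFr-F, 130 in HFHFr-FA, 122 in HFHFr-N and 135 in HFHFr-NA. Control was the highest array and HFHFr-F the lowest, 1.47-fold apart. With retinoic acid the log2 ratio was 0.34 on the diet and 0.15 on normal diet. Slc25a20, the carnitine-acylcarnitine carrier of the inner membrane, was highest in control at 10.9 and lay between 7.0 and 8.75 on the other 4 arrays, with a log2 ratio of -0.64 for HFHFr-N against control. Crat, which joins carnitine to acetyl groups, ranged from 13.8 in HFHFr-NA to 18.3 in HFHFr-FA.

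The acyl-CoA dehydrogenases take the first hydrogen atoms off the chain and pass them through the electron transfer flavoprotein, Etfa and Etfb, to its dehydrogenase, Etfdh. Of these 7 genes, 6 were lower in HFHFr-F than in control, by log2 ratios from -0.71 (Etfdh) to -0.16 (Acadm), and Acads was higher at 0.26. Acadm, the medium chain enzyme, read 268 in control, 240 in HFHFr-F, 228 in HFHFr-FA, 244 in HFHFr-N and 240 in HFHFr-NA, a narrow range in which no array stood out. Its log2 ratio was -0.16 for HFHFr-F against control and between -0.07 and 0.07 in the 4 pairs without the control. Etfdh read 117 in control, 71.5 in HFHFr-F, 79.7 in HFHFr-FA, 105 in HFHFr-N and 102 in HFHFr-NA, so both arrays from mice kept on the diet were low. Its second probe read 1.84, 0.996, 1.07, 1.23 and 0.929 in the same order, with HFHFr-NA lowest. By that probe the log2 ratio was -0.89 for HFHFr-F against control, beside -0.71, and -0.20 for HFHFr-NA against HFHFr-FA, where the chosen probe gave 0.35. Acadvl, the very long chain enzyme, and Etfb were highest in HFHFr-NA, at 434 and 589, with log2 ratios of 0.25 and 0.35 against HFHFr-N.

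Of the 6 genes of the later mitochondrial steps none was 1.5-fold apart in any pair by its chosen probe. Hadha, the alpha subunit of the trifunctional protein, read 7.13 in control, 5.81 in HFHFr-F, 6.16 in HFHFr-FA, 6.46 in HFHFr-N and 7.85 in HFHFr-NA. HFHFr-F was lowest and HFHFr-NA highest, with log2 ratios of -0.30 against control for the first and 0.28 against HFHFr-N for the second. Hadhb, the beta subunit, was also lowest in HFHFr-F, at 81.8 against 118 in control. Hadh, the short chain hydroxyacyl-CoA dehydrogenase, went the other way, at 110 in HFHFr-F and between 76.9 and 82.7 on the other 4 arrays. The log2 ratios of HFHFr-F against control were -0.20 for the thiolase Acaa2, -0.40 for the dienoyl-CoA reductase Decr1 and -0.40 for the enoyl-CoA isomerase Eci1. The second Decr1 probe gave -0.80 for HFHFr-NA against HFHFr-N, where the chosen probe gave -0.44. The second Hadha probe, dim and well above background on only 3 arrays, gave a bound of 0.91 for HFHFr-FA against HFHFr-F. The chosen Hadha probe gave 0.08 for that pair, and the third was well above background on no array.

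Peroxisomal genes were uneven: Ehhadh was low on every array but the control, and the other 6 were all under 1.5-fold in the 6 pairs. Ehhadh encodes the peroxisomal bifunctional enzyme, and at chr16:21761914-21761973 its scaled signal was 150 in control, 31.7 in HFHFr-F, 69.6 in HFHFr-FA, 70.1 in HFHFr-N and 67.6 in HFHFr-NA. HFHFr-F was 4.74-fold below control, and the 3 remaining arrays lay close together, 2.14-fold below control in the case of HFHFr-N. Its log2 ratio was 1.13 with retinoic acid on the HFHFr diet, -0.05 with retinoic acid on normal diet and 1.15 for the return to normal diet without it. Hsd17b4, the other bifunctional enzyme of peroxisomes, ranged only from 242 to 274. Decr2 and Eci2, the peroxisomal dienoyl-CoA reductase and enoyl-CoA isomerase, ranged from 30.9 to 33.7 and from 313 to 403, with HFHFr-F lowest and HFHFr-NA highest for both.

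Pex11a, which promotes division of peroxisomes, was higher on both arrays from mice kept on the HFHFr diet. Its scaled signal over 10 spots was 237 ± 8.53 (SD of spots) in control, 331 ± 8.98 in HFHFr-F, 356 ± 6.09 in HFHFr-FA, 249 ± 6.76 in HFHFr-N and 240 ± 7.94 in HFHFr-NA. The spots of HFHFr-F and HFHFr-FA, at 317 or above, did not overlap those of the other 3 arrays, at 258 or below. These ranges cover spotting alone and not mice, and the share of other probes spotted 10 times that separated likewise was not counted. The log2 ratio was 0.49 for HFHFr-F against control, the opposite sign to Ehhadh.

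The 3 probes of Acaa1a, a peroxisomal thiolase, did not move together. The chosen probe read 355 in control, 386 in HFHFr-F, 379 in HFHFr-FA, 373 in HFHFr-N and 479 in HFHFr-NA, a log2 ratio of 0.36 for HFHFr-NA against HFHFr-N. The other 2 probes gave -0.39 and -0.35 for that pair, the second of them being the one printed above, and the probe of its neighbour Acaa1b gave -0.41. Acaa1b read 473 in control and 360 in HFHFr-NA. The direction of Acaa1a with retinoic acid on normal diet therefore depends on the probe.

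The 3 Cyp4a genes of omega-oxidation were all lowest in HFHFr-F. CYP4A enzymes hydroxylate the far end of fatty acids, and their genes lie together on chromosome 4. Cyp4a10, at chr4:115206200-115206259, had a scaled signal of 625 in control, 217 in HFHFr-F, 421 in HFHFr-FA, 502 in HFHFr-N and 623 in HFHFr-NA. By this probe HFHFr-F was 2.88-fold below control, HFHFr-NA was level with control, and the other arrays lay between. The other 3 Cyp4a10 probes gave log2 ratios of -2.07, -2.18 and -2.46 for HFHFr-F against control, each further from 0 than the -1.53 of the chosen probe. The first and last of these come from probes 2 and 4, which are also listed for Cyp4a32 and cannot be assigned to Cyp4a10 alone. In HFHFr-NA they read 173, 64.5 and 12.4, each below its control value of 203, 94.3 and 21.2. For HFHFr-N against control they gave -0.71, -0.75 and -0.89, each past 1.5-fold, where the chosen probe gave -0.32.

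Cyp4a14, at chr4:115158914-115158973, read 1129 in control, 414 in HFHFr-F, 828 in HFHFr-FA, 902 in HFHFr-N and 1243 in HFHFr-NA. It shared the order of Cyp4a10 except that HFHFr-NA stood above control, at 0.14 on the log2 scale. Cyp4a31, at chr4:115242824-115242883, read 5.54 in control, 0.874 in HFHFr-F, 2.37 in HFHFr-FA, 3.01 in HFHFr-N and 3.41 in HFHFr-NA. HFHFr-F was 6.34-fold below control, and no other array reached the control level. Their probes differ in sequence: the longest identical run between a probe of 1 of these 3 genes and a probe of another was 6 bases. Probes were compared only with each other, so binding of a probe to the RNA of another of these genes was not tested. Aldh3a2, which oxidises fatty aldehydes, did not share the pattern and was lowest in control at 44.3 and highest in HFHFr-N at 58.8.

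**Figure D3:**
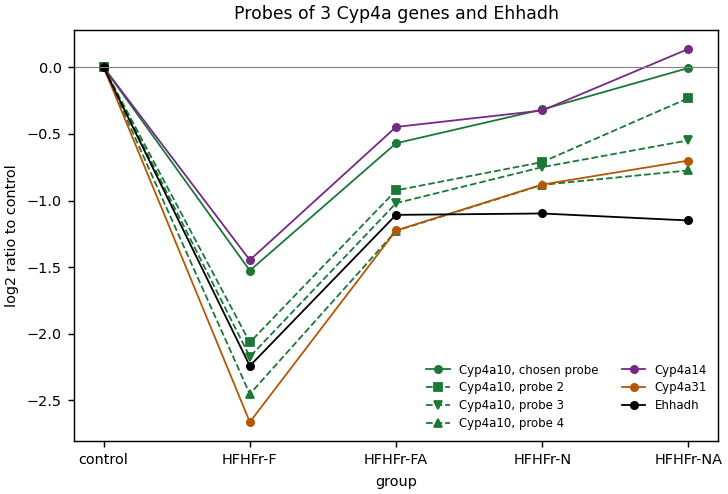
Log2 ratio of scaled signal to the control array (vertical axis) for the 4 probes of Cyp4a10 and the probes of Cyp4a14, Cyp4a31 and Ehhadh on each array (horizontal axis, 1 array a group, with lines joining the points of a probe only to guide the eye). Every probe is lowest in HFHFr-F, between -1.45 and -2.67, and Ehhadh lies between -1.10 and -1.15 on the 3 remaining arrays.

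Bdh1, the mitochondrial enzyme that converts acetoacetate to beta-hydroxybutyrate, was the ketone body gene among the members. Its scaled signal was 94.1 in control, 102 in HFHFr-F, 58.9 in HFHFr-FA, 78.0 in HFHFr-N and 81.6 in HFHFr-NA. HFHFr-FA was the low array, with a log2 ratio of -0.79 against HFHFr-F, while its second probe gave -0.22 for that pair. For HFHFr-N against HFHFr-F the probes went opposite ways, at -0.38 by the chosen and 0.40 by the second.

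Pdk4 encodes a kinase that shuts off pyruvate dehydrogenase and so spares glucose while fat is burned. At chr6:5433441-5433500 its scaled signal was 2.47 in control, 5.05 in HFHFr-F, 15.0 in HFHFr-FA, 1.01 in HFHFr-N and 1.36 in HFHFr-NA. It was high on both arrays from mice kept on the diet and low on both arrays from mice returned to normal diet, with a 14.9-fold range that was the widest of the 39 members. The log2 ratio was 1.57 for HFHFr-FA against HFHFr-F and 0.43 for HFHFr-NA against HFHFr-N. Genes of the circadian clock differed between the same arrays: Dbp, a clock output gene, read 46.4 in control, 30.1 in HFHFr-F, 8.56 in HFHFr-FA, 118 in HFHFr-N and 108 in HFHFr-NA. Of 14 clock genes measured in HFHFr-N against HFHFr-F, 3 were at least 2-fold higher and 1 was lower, beside 2.16% and 3.63% of all genes. In HFHFr-NA against HFHFr-FA 5 of 15 were higher and 3 lower, beside 2.49% and 3.27%. For 1 gene in the first pair and 3 in the second the ratio is a bound, because only 1 of the 2 arrays measured the gene. The part of the clock genes in the Pdk4 values was not tested.

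Ucp2 encodes a mitochondrial carrier protein that is abundant in macrophages and low in normal hepatocytes. Its scaled signal was 0.280 in control, 0.955 in HFHFr-F, 0.642 in HFHFr-FA, 0.420 in HFHFr-N and 0.360 in HFHFr-NA. HFHFr-F was highest, 3.42-fold above control, and HFHFr-FA came second. The summed scaled signal of 5 lipid-associated macrophage markers (Trem2, Gpnmb, Cd9, Spp1 and Itgax) was 14.2 in control, 76.0 in HFHFr-F, 18.3 in HFHFr-FA, 16.4 in HFHFr-N and 14.1 in HFHFr-NA. All 5 were well above background in HFHFr-F and 3 were in control. Spp1 and Cd9 made up most of the sum, at 7.66 and 6.20 in control and 9.98 and 5.10 in HFHFr-FA. Trem2 read 0.312 in control, 5.81 in HFHFr-F, 2.21 in HFHFr-FA, 0.649 in HFHFr-N and 1.24 in HFHFr-NA. Itgax and Gpnmb, not well above background in control, read 0.806 and 0.171 in HFHFr-FA. The part of these cells in the Ucp2 values was not tested. Of the other Ucp2 probes 1 was well above background only in HFHFr-F and 1 on no array.

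Vnn1, the pantetheinase that releases the vitamin part of coenzyme A breakdown products, is a liver PPARA target. It read 29.8 in control, 26.2 in HFHFr-F, 25.6 in HFHFr-FA, 37.7 in HFHFr-N and 23.0 in HFHFr-NA. HFHFr-N was the high array, and the log2 ratio of HFHFr-NA against HFHFr-N was -0.72, where that of HFHFr-FA against HFHFr-F was -0.04.

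**Figure D4:**
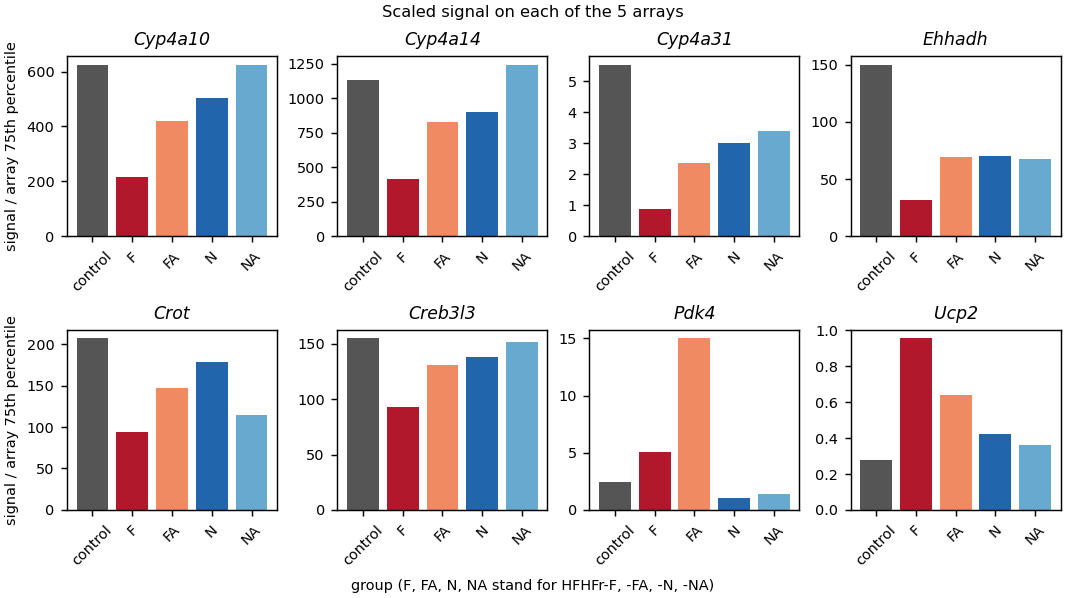
Scaled signal (processed signal divided by the array's 75th percentile, vertical axes from 0, each gene on its own scale) of 8 genes on the 5 arrays (bars, 1 array of pooled RNA each, no error bars because no group has a replicate). HFHFr-F is the lowest bar for Cyp4a10, Cyp4a14, Cyp4a31, Ehhadh, Crot and Creb3l3, HFHFr-F is highest for Ucp2, and HFHFr-FA is highest for Pdk4.

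After the return to normal diet the members that were 2-fold lower in HFHFr-F lay closer to control, and of these Ehhadh was still 2-fold below it. Comparing HFHFr-N with control, 2 members were at least 2-fold lower (Pdk4 at -1.29 and Ehhadh at -1.10), where 0.834% of 14507 genes were, and 0 were 2-fold higher, where 1.15% were. At 1.5-fold, 4 were lower (Cyp4a31 and Slc25a20 added), against 3.66% of genes, and Ucp2 alone was higher, against 4.44%. These counts are by the chosen probes. Other probes past 1.5-fold lower were those of Cyp4a10 (-0.71, -0.75 and -0.89), Crot (-0.70) and Etfdh (-0.59). The first and last of the Cyp4a10 values come from probes also listed for Cyp4a32. The members' median was -0.12 and that of all genes 0.03, and 27 of 39 members lay below 0, where 6593 of the 14507 genes did.

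Set directly against HFHFr-F, the HFHFr-N array had 4 members at least 2-fold higher (Cyp4a31 at 1.78, Cyp4a10 at 1.21, Ehhadh at 1.15 and Cyp4a14 at 1.12), where 2.16% of 14801 genes were. It had 2 at least 2-fold lower (Pdk4 at -2.32 and Ucp2 at -1.19), where 3.63% were. At 1.5-fold Crot joined the higher ones, 5 in all against 9.26% of genes, and the lower ones were again 2 against 9.10%. Cyp4a14 and Ucp2 were each below 2-fold under 2 of 9 alternative ways of processing, at 0.73 and -0.83 for the nearest to 0. The medians were 0.15 for the members and 0.10 for all genes. This pair shares the HFHFr-F array with HFHFr-F against control, so its ratios are not independent of the low values there.

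Where retinoic acid was added while the diet went on, the same Cyp4a genes and Ehhadh had higher signal than in HFHFr-F. The HFHFr-F array is also in the comparison with control that set these genes apart. A low reading on that array alone would raise these ratios too, so the 2 comparisons are not independent. Comparing HFHFr-FA with HFHFr-F, 4 members were at least 2-fold higher (Pdk4 at 1.57, Cyp4a31 at 1.44, Ehhadh at 1.13 and Cyp4a14 at 1.0), where 2.71% of 14928 genes were, and 0 were 2-fold lower, where 2.83% were. Cyp4a10 at 0.96 and Crot at 0.63 joined at 1.5-fold, 6 in all against 9.78% of genes, and Bdh1 alone was 1.5-fold lower, against 8.79%. Cyp4a14 fell below 2-fold under 2 of 9 alternative ways of processing, with 0.84 the lowest value. The other 3 Cyp4a10 probes gave log2 ratios of 1.14, 1.16 and 1.23, the first and last by probes also listed for Cyp4a32. The medians were 0.08 for the members and 0.03 for all genes.

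By the chosen probes, retinoic acid added to normal diet left no member 2-fold apart. Comparing HFHFr-NA with HFHFr-N, 0 members were 2-fold higher, where 1.51% of 14875 genes were, and 0 were 2-fold lower, where 1.33% were. At 1.5-fold Cpt1a was the 1 member higher, against 6.09% of genes, and Vnn1 and Crot were the 2 lower, against 5.24%. The second Crot probe was past 2-fold lower, at -1.13, and the second Decr1 probe was past 1.5-fold lower, at -0.80. Cyp4a14 was at 0.46, Cyp4a10 at 0.31, Cyp4a31 at 0.18 and Ehhadh at -0.05. The medians were 0.08 for the members and 0.02 for all genes. The retinoic acid comparisons on the 2 diets share no array: 26 of 39 members had the same sign in both, 17 higher and 9 lower, or 66.7%, beside 57.7% of all genes.

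**Figure D5:**
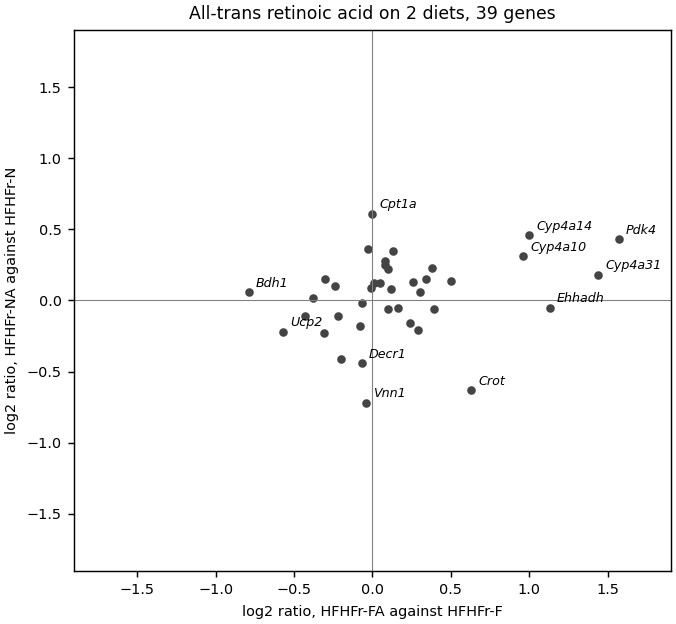
Log2 ratio of HFHFr-FA against HFHFr-F (horizontal axis) and of HFHFr-NA against HFHFr-N (vertical axis), 1 point for each of the 39 genes, with grey lines at 0. Most points lie near the origin, Pdk4, Cyp4a31, Ehhadh, Cyp4a14 and Cyp4a10 lie to the right between 0.96 and 1.57, and Crot lies at 0.63 and -0.63.

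With retinoic acid on both diets, HFHFr-NA against HFHFr-FA had 0 members 2-fold higher, where 2.49% of 15045 genes were, and 1 lower (Pdk4 at -3.46), where 3.27% were. At 1.5-fold 1 was higher (Cyp4a14 at 0.59), against 10.2%, and 2 were lower (Pdk4 and Ucp2), against 9.56%. The medians were 0.12 for the members and 0.10 for all genes, and the members' median was -0.08 with cyclic loess and -0.11 with normexp and quantile normalization. Across the 6 pairs, 7 members were at least 2-fold apart in any pair and 26 were under 1.5-fold in all, each by its chosen probe. The same shares over all genes were not counted, so these 2 counts only describe the members.

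A further list of the pathway, of genes that are not members, held 70 genes, of which 68 had a probe and 65 were measured in each of the 6 comparisons. In HFHFr-F against control 4 of the 65 were at least 2-fold lower, beside the 3.21% of all genes given above: Cyp4a12b at -2.18, Cyp4a12a at -1.46, Retsat at -1.36 and Acadsb at -1.02. Abcd2 and Cd36 were the 2 at least 2-fold higher, at 1.93 and 1.14, where 5.40% of all genes were. Cyp4a12b and Retsat, a retinol saturase and PPARA target, were the 2 at least 2-fold higher in HFHFr-N than in HFHFr-F, at 1.30 and 1.04. Acacb, an acetyl-CoA carboxylase, was the 1 at least 2-fold lower, at -1.02. Of all genes 2.16% were higher and 3.63% lower in that pair. In HFHFr-FA against HFHFr-F 0 were lower and 4 higher, beside 2.83% and 2.71% of all genes: Fgf21 at 2.04, G0s2 at 1.18, Txnip at 1.13 and Cyp4a12b at 1.03. In HFHFr-NA against HFHFr-N 1 was higher, Lpin1 at 1.14, and 2 were lower, Abcd2 at -1.23 and Cd36 at -1.15, beside 1.51% and 1.33%. In HFHFr-N against control 2 were higher, Abcd2 at 2.12 and Cd36 at 1.17, and 1 lower, Fgf21 at -1.01, beside 1.15% and 0.834%. In HFHFr-NA against HFHFr-FA 1 was higher, Slc27a1 at 1.52, and 2 were lower, Fgf21 at -1.59 and Hilpda at -1.24, beside 2.49% and 3.27%. The medians of the 65 genes ranged from -0.11 in HFHFr-F against control to 0.12 in HFHFr-NA against HFHFr-FA.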

How the data were processed

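Per the labels, liver RNA pooled from 5 mice per group was labelled with Cy3 and hybridised to 4x44K whole mouse genome arrays, 1 per group. The processed intensity of each spot was deposited background-subtracted and detrended within its array with no scaling between arrays. Per the file headers, the software was Feature Extraction 10.5.1.1 and probe positions are on mm9. Values in the authors' deposited table equalled that intensity as a ratio to 1 constant per array when set against the scanner values, so scale and direction are known and genes are not centred. Medians of its columns for control, HFHFr-F, HFHFr-FA, HFHFr-N and HFHFr-NA were 0.0700, 0.0675, 0.0721, 0.0738 and 0.0744.

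Outlier spots (60 to 96 per array) were left out, the array's 75th percentile of non-control spots was subtracted on the log2 scale, spots of a probe were averaged and the brightest probe stood for a gene. Other genes were named through the RefSeq table of GRCm38.p6, which matched 24844 of 41174 probes. Exon and untranslated region were not determined. A gene entered a comparison when well above background on at least 1 of its 2 arrays. Members at least 2-fold apart in any pair, and Ppara, Cpt1a, Cpt2, Hadha, Acadm, Ehhadh, Cyp4a10, Cyp4a14, Pdk4, Fabp1, Bdh1 and Vnn1, were to be given on every array and the rest as ranges. The members, lists and this rule were chosen with earlier results of these data known. The ratios were tested on simulated data, and the number of arrays limits the precision. The 9 alternatives were the array median, a percentile over probes measured on all arrays, cyclic loess, normexp (offset 50) with quantile normalization, the deposited value table, no detection filter, detection on both arrays, the mean of a gene's probes and outlier spots kept. R 4.3.3, limma 3.58.1, Python 3.11.15, pandas 2.3.3, numpy 2.4.6 and matplotlib 3.10.9 were used.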

Additional observations from a re-analysis of the deposited data

Results flagged for a closer look

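Crot, the peroxisomal carnitine octanoyltransferase, went opposite ways with all-trans retinoic acid on the 2 diets. Its log2 ratio was 0.63 for HFHFr-FA against HFHFr-F and -0.63 for HFHFr-NA against HFHFr-N. It drew attention because both ratios were at least 0.5 in size with opposite sign. The second Crot probe gave 0.64 and -1.13. Each ratio comes from 1 pair of arrays, so the difference between the diets was not tested, and HFHFr-FA was alone on its slide.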

How the results depend on the processing

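The 18 counts and medians of the members were recomputed under 9 alternatives. Of the 162 values, 154 stayed within 1.5 times the count or within the spread of replicate spots. A median within that spread could still change sign: for HFHFr-FA against HFHFr-F it was 0.08, and -0.01 with the array median as scale. With normexp background correction and quantile normalization 1 member was at least 2-fold higher in HFHFr-F than in control, with Pdk4 at 0.95, and 1 was at least 2-fold lower in HFHFr-N than in HFHFr-F. That last count was also 1 with the mean of all probes of a gene, where Ucp2 was at -0.83. The members' median for HFHFr-N against HFHFr-F was 0.04 with the array median as scale, 0.03 with cyclic loess and 0.04 with normexp and quantile. For HFHFr-NA against HFHFr-FA it was -0.08 with cyclic loess and -0.11 with normexp and quantile, below 0 where the reported value was above. The median of all genes for HFHFr-N against HFHFr-F was 0.10, and -0.01 with the array median or cyclic loess. Cyp4a14 in HFHFr-FA against HFHFr-F kept 2-fold in 7 of 9 alternatives, with 0.84 at the lowest, and in HFHFr-N against HFHFr-F in 7 of 9, with 0.73 at the lowest. Of 810 values of single genes 117 moved by more than the spot spread and 0 of those called changed sign. The cause of these changes was not tested.

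Among all genes past 2-fold, the share that was higher depended on the scaling. It was 62.7% in HFHFr-F against control and 74.2% with cyclic loess, and 50% with no detection filter. It was 48.9% in HFHFr-FA against HFHFr-F, 35.3% with the array median and 39.7% with cyclic loess. It was 37.2% in HFHFr-N against HFHFr-F, 25.6% with the array median, 24.4% with cyclic loess and 54.8% with no filter. It was 43.3% in HFHFr-NA against HFHFr-FA, and 29.9% with the percentile taken over probes measured on all arrays, 32.0% with normexp and quantile and 54.1% with no filter. In the order of HFHFr-F against control, HFHFr-N against control, retinoic acid on HFHFr, retinoic acid on normal diet, and the return to normal diet without and with retinoic acid, the number of all genes 2-fold apart was 1260, 288, 828, 423, 857 and 867. With normexp and quantile it was 478, 78, 286, 92, 268 and 244, and with no filter 3121, 1844, 2463, 2111, 2730 and 2674. With detection on both arrays it was 180 for HFHFr-N against control and 253 for HFHFr-NA against HFHFr-N. No paired analysis was possible because each group has 1 array. The number of arrays limits the precision, the pools hide the spread between mice, and Ucp2 was the dimmest of the 39 members, with 1 of its 3 probes well above background on all arrays.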

Other observations

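Cd36 and Abcd2, genes of fatty acid uptake and of peroxisomal import of very long chains, ordered the pools differently from the Cyp4a genes. Cd36 had a scaled signal of 8.62 in control, 19.1 in HFHFr-F, 10.2 in HFHFr-FA, 19.5 in HFHFr-N and 8.76 in HFHFr-NA. It was high in both pools without retinoic acid that had been on the diet, whichever diet they ended on, and near control in both pools with it. Abcd2 read 0.143 in control, 0.545 in HFHFr-F, 0.300 in HFHFr-FA, 0.620 in HFHFr-N and 0.265 in HFHFr-NA, with the same arrays high. Cidea, a lipid droplet gene, had a log2 ratio of -1.08 for HFHFr-FA against HFHFr-F and -1.17 for HFHFr-NA against HFHFr-N. These genes were picked after their values were seen.

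Fgf21, which encodes a liver hormone and is a PPARA target, read 5.71 in control, 3.18 in HFHFr-F, 13.1 in HFHFr-FA, 2.84 in HFHFr-N and 4.35 in HFHFr-NA. HFHFr-FA was the high array, as for Pdk4. Rxra, the partner of PPARA on DNA, read 52.1 in control, 65.2 in HFHFr-F, 68.1 in HFHFr-FA, 61.0 in HFHFr-N and 78.0 in HFHFr-NA, and none of the 6 comparisons reached 1.5-fold.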
